A study of Homo sapiens with 10 samples.

Results

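The Kruppel-like factor (KLF) genes KLF1, KLF2, KLF3, KLF4, KLF5, KLF6, KLF9, KLF10, KLF12 and KLF15 were followed through the histone acetylation maps of 2 prostate cancer cell lines. These genes were chosen by name and are 10 of the 20033 protein-coding genes of the annotation. Every peak that touched a gene body or the 50 kb to either side of it was taken, which gave 465 of the 537404 deposited peaks. KLF proteins are zinc finger transcription factors that bind CACCC and GC-rich boxes in promoters and enhancers. They sort by the partners they recruit: KLF1, KLF2, KLF4, KLF5 and KLF6 can engage histone acetyltransferases, KLF3 and KLF12 bind the corepressor CtBP, and KLF9 and KLF10 bind the corepressor SIN3A. In prostate epithelium KLF5 and KLF4 are tied to basal and progenitor states, and KLF6 is known as a growth suppressor.

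C4-2B is a line of prostate adenocarcinoma that grows under castration, and C4-2BER was derived from it by prolonged culture in the anti-androgen drug enzalutamide and is described as neuroendocrine-like (NE-like). ChIP-Seq was carried out for 2 marks of active chromatin, histone H3 acetylated at lysine 27 (H3K27ac) or at lysine 18 (H3K18ac), with 2 libraries per mark and line and 1 input library per line. The libraries of a mark and line were merged before peaks were called, so that each of the 4 lists gives 1 value per peak and every difference below is a description without a test or a replicate error. Both groups are a single cell line each, read depth is unknown from these lists, and the difference between the lines cannot be told apart from a difference between the merged libraries.

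The labels of the lines were checked at marker promoters. KLK3, the luminal gene of prostate-specific antigen, carried an H3K27ac promoter peak of 13.8-fold in C4-2BER against 20.3-fold in C4-2B. Of the neuroendocrine markers, ENO2 had an H3K27ac fold enrichment of 14.3 in C4-2BER against 4.00 in C4-2B, and SYP had 5.67 against 8.16. CHGA had no H3K27ac promoter peak in either line, and in H3K18ac it had 2.29 against 4.31. The basal markers KRT5, KRT14 and TP63 had no H3K27ac promoter peak either. At these promoters C4-2BER thus had a luminal marker still acetylated, and of the 3 neuroendocrine markers ENO2 alone had the higher H3K27ac value in C4-2BER.

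Fold enrichment is the ChIP signal of a peak over its local background, given as 1 value for the whole peak. It thus depends on how wide a peak was called, and the tallest peak is the one with the highest value. A promoter is the stretch from 2000 bp upstream to 500 bp downstream of any annotated start, and its value is that of the tallest peak in it. Overlapping peaks of the 2 lines were joined into regions, and a promoter or region was called increased in C4-2BER if the peak was present there alone or had at least 2 times the fold enrichment of C4-2B, and decreased in the mirrored case. Positions are given in kb from the canonical start of each gene, with negative values upstream. The lists are not on 1 scale: over all protein-coding genes the median promoter log2 ratio of C4-2BER to C4-2B was −0.50 in H3K27ac and −0.33 in H3K18ac. After the C4-2BER values were rescaled by a line through the shared regions these medians were −0.11 and −0.13.

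At the promoters, every KLF gene was acetylated in C4-2B, and the H3K27ac values of C4-2BER were lower as deposited but not for all genes after rescaling. In H3K27ac, 9 of the 10 genes had a promoter peak in both lines and all 9 had the lower fold enrichment in C4-2BER, with a median log2 ratio of −0.51. After rescaling, 5 of the 9 remained lower and the median was −0.02. The direction of the family as a whole thus followed that of all promoters, of which 87.8% were lower as deposited and 63.2% after rescaling. None of the 10 promoters was called increased, against 4.56% of all promoters with a peak, and 3 were called decreased (KLF1, KLF5 and KLF6), against 10.8%. After rescaling 1 of these calls, that of KLF1, was left, beside 673 decreased among the 15346 promoters with a peak. In H3K18ac, 7 of 9 promoters were lower in C4-2BER, or 6 after rescaling, beside 84.9% and 66.6% of all promoters. None was called increased (2.15% of all promoters) and 1 was called decreased (KLF1, against 5.90%).

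**Figure D1:**
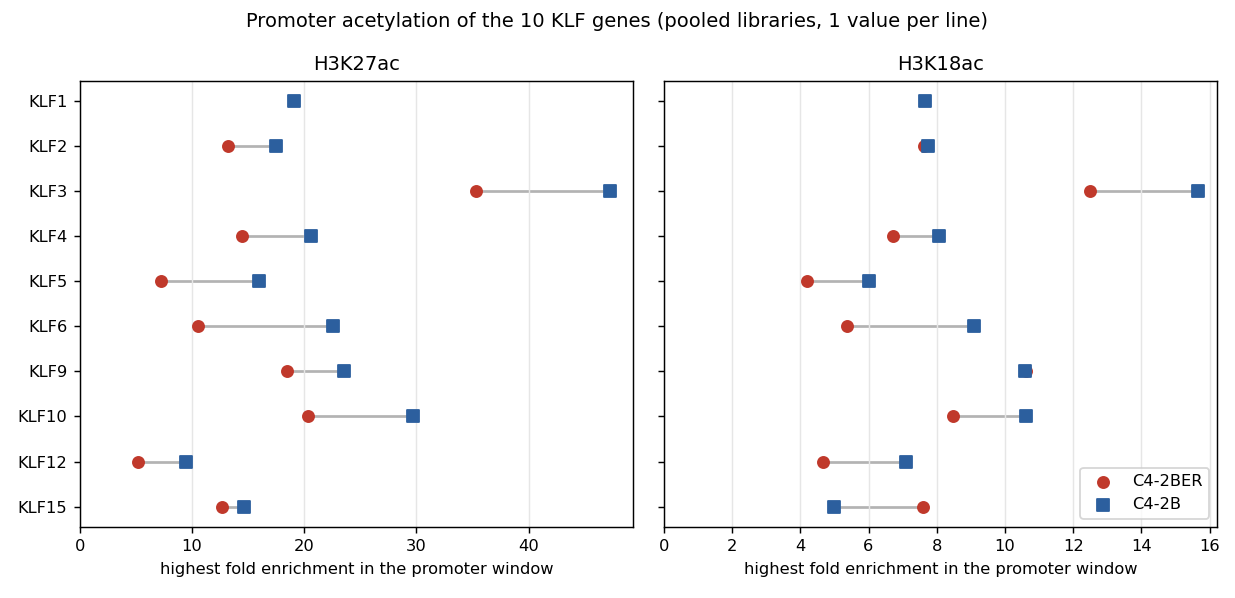
Fold enrichment of the tallest peak in the promoter window of each KLF gene (x axis, linear, from 0) in C4-2BER (circles) and C4-2B (squares), for H3K27ac on the left and H3K18ac on the right; each point is 1 value from merged libraries and has no error bar. KLF3 stands highest in both marks, KLF5, KLF6 and KLF12 have long gaps towards lower values in C4-2BER, KLF15 has a higher H3K18ac value in C4-2BER (7.59 against 5.00, a direction that turns over the wider joined region), and KLF1 has no C4-2BER point because its peak begins past the window.

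Among the KLF genes whose products can recruit acetyltransferases, KLF5 and KLF6 showed the largest H3K27ac promoter gaps of those with a peak in both lines. KLF5, a factor of basal epithelium and of proliferating progenitors (chr13:73054976-73077541, plus strand), had H3K27ac of 7.23-fold at its promoter in C4-2BER against 15.9 in C4-2B. The value was 2.21 times higher in C4-2B, a log2 ratio of −1.14 that lay above 4.05% of all promoters. After rescaling it was −0.82, short of a call. The H3K18ac values at the same place were 4.21 and 6.00. The KLF5 neighbourhood was otherwise bare. In C4-2BER the promoter peak, from −0.08 to 1.605 kb, was the only H3K27ac peak in the window. C4-2B had 2 further small peaks, over exon 2 at 2.96 to 3.23 kb (fold enrichment 2.65) and in the gene body at 5.57 to 5.92 kb (2.88). H3K18ac had 1 peak in each line. All 3 H3K27ac regions of the KLF5 window were thus called decreased, beside 22.7% of all H3K27ac regions. Of the 4 annotated starts of KLF5, 2 that lie away from the canonical one had no peak in any list.

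KLF6, an inducible factor known as a growth suppressor in prostate (chr10:3775996-3785281, minus strand), had an H3K27ac promoter value of 10.6 in C4-2BER against 22.6 in C4-2B. That is 2.14 times more in C4-2B, and the log2 ratio of −1.09 became −0.68 after rescaling. In H3K18ac the values were 5.38 and 9.10, a log2 ratio of −0.76 that lay above 8.54% of promoters. A distal element of KLF6 differed in the same direction. At −25.2 to −24.3 kb, over the start of the lncRNA gene ENSG00000287175, the H3K27ac fold enrichment was 5.57 in C4-2BER against 10.7 in C4-2B. The matching H3K18ac region had 5.00 and 7.88. Further upstream, at −45.7 to −43.3 kb, the order was the other one, with 5.69 in C4-2BER against 4.33 in C4-2B. Of the 4 H3K27ac regions of the KLF6 window none was called increased and 2 were called decreased, beside 30.5% and 22.7% of all H3K27ac regions.

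The promoter bases of KLF5 and KLF6 are shown because their H3K27ac log2 ratios were the lowest among the KLF promoters with a peak in both lines. The sequences are the RefSeq promoters of GRCh38.p14, 5′ to 3′ on the gene's strand, and the capitals mark the KLF boxes CACCC and GGGCGG on either strand, that is also GGGTG and CCGCCC. For KLF5 the 250 bases before the start (chr13:73058755-73059004, plus strand) hold 2 CACCC and 2 GGGCGG matches. For KLF6 the 178 bases shown (chr10:3785282-3785459, minus strand) leave out the 72 bases next to the start, where other annotated starts lie, and hold 1 of the 2 GGGCGG matches of the full stretch. Over 35116 RefSeq promoters, 54.7% held a CACCC match and 42.6% a GGGCGG match in the same length, so such matches are common and describe the letters only.
KLF5: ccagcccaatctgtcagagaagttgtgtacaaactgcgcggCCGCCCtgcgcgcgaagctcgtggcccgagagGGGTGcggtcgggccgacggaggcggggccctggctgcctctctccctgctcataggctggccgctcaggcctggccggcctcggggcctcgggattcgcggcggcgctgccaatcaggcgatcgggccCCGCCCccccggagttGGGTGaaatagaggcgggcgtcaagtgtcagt
KLF6: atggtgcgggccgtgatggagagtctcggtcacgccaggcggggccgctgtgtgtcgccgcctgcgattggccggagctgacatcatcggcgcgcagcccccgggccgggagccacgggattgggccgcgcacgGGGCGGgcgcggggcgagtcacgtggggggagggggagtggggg

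KLF4 and KLF2 had promoter peaks in both lines with smaller H3K27ac gaps, and KLF1 had a promoter peak in C4-2B alone. KLF4, a factor of epithelial differentiation and of pluripotency (chr9:107484852-107490482, minus strand), had H3K27ac promoter values of 14.4 in C4-2BER against 20.6 in C4-2B, and H3K18ac values of 6.70 and 8.07. The stretch downstream of KLF4, in the lncRNA gene LINC01509, was broadly acetylated in both lines. At 32.0 to 36.7 kb the H3K27ac fold enrichment was 12.6 in C4-2BER against 12.2 in C4-2B, and at 47.5 to 62.8 kb it was 8.38 and 8.49. The levels were thus nearly equal, but the peaks were joined over longer stretches in C4-2BER. A single H3K18ac peak ran from 31.3 to 69.8 kb there, 38.5 kb wide, and 57 of the 197948 peaks of that list were wider. Over the same ground the widest H3K18ac peak of C4-2B was 19.7 kb. H3K18ac peaks covered 66.5% of the KLF4 window in C4-2BER and 44.01% in C4-2B.

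KLF2, a factor of quiescent endothelial and lymphoid cells (chr19:16324826-16328685, plus strand), had H3K27ac promoter values of 13.2 in C4-2BER against 17.5 in C4-2B. The log2 ratio of −0.40 was 0.01 after rescaling, so no direction can be given for it. In H3K18ac the promoter values were nearly level, at 7.61 and 7.75. The promoter window also holds the start of the divergent transcript KLF2-DT, so the peak belongs to both. Around KLF2 the H3K18ac cover was lower in C4-2BER, with 18.2 kb under peaks against 40.4 kb in C4-2B. This 2.22-fold gap put the KLF2 ratio above 3.73% of genes, while the window held 21 H3K18ac peaks in C4-2BER against 23 in C4-2B, so the peaks of C4-2B were wider. H3K27ac had the reverse order there, with 9.39 kb in C4-2BER against 8.03 kb.

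KLF1, the erythroid factor of globin genes (chr19:12884422-12887201, minus strand), was called decreased through the position of its peak rather than its height. In C4-2B the H3K27ac promoter value was 19.1, and no C4-2BER peak reached the window. The C4-2BER peak over the gene body had a fold enrichment of 12.01, and the joined region, from −0.08 to 2.73 kb, was not called different. With promoters taken as 1000 bp on both sides of the start the KLF1 log2 ratio was −0.67 in H3K27ac and −0.22 in H3K18ac, with neither called. The KLF1 window is dense with other genes, and its tallest H3K27ac peak in both lines stood at 4.72 to 8.45 kb, over the promoter of the nuclease gene DNASE2, with 16.6 in C4-2BER against 22.8 in C4-2B.

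KLF3 and KLF12, the partners of CtBP, stood at opposite ends of the family in their H3K27ac promoter values. KLF3, a repressor with roles in blood and fat cells (chr4:38664197-38701517, plus strand), had the tallest promoter peak of the 10 genes in both marks. Its H3K27ac value was 35.3 in C4-2BER, above 99.98% of promoters, and 47.2 in C4-2B, above 99.92%. The log2 ratio of −0.42 turned to 0.23 after rescaling, so no direction can be given for it. In H3K18ac the KLF3 values were 12.5 and 15.7. The window holds the start of KLF3-AS1 on the other strand, and the peak cannot be divided between the genes.

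Away from its promoter KLF3 had mostly more H3K27ac in C4-2BER, and more bases under H3K18ac peaks. At −46.2 to −40.1 kb the H3K27ac fold enrichment was 15.0 in C4-2BER against 9.41 in C4-2B, a log2 ratio of 0.68 that was 1.02 after rescaling. This region lies in KLF3-AS1 and covers the start of another lncRNA gene, ENSG00000271958. In the KLF3 body at 5.11 to 12.2 kb the H3K27ac fold enrichment was 13.3 and 10.7. Regions near 20.7, 58.9 and 87.0 kb had a peak in C4-2BER alone in both marks, with H3K27ac fold enrichments of 2.83, 3.39 and 3.13. The H3K18ac cover of the KLF3 window was 41.8 kb in C4-2BER against 24.3 kb in C4-2B, a ratio of 1.72 that lay above 86.3% of genes. By fold enrichment, 6 of its 11 H3K18ac regions with a peak in both lines were lower in C4-2BER, the promoter region among them. At −46.35 to −44.1 kb the H3K18ac values were 2.93 in C4-2BER against 4.04 in C4-2B. At −43.0 to −39.1 kb they were 7.32 and 5.15.

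KLF12, which represses TFAP2A and other targets through CtBP (chr13:73686089-74134404, minus strand), is the longest of the genes at 448 kb and had the lowest promoter values in H3K27ac. They were 5.17 in C4-2BER against 9.47 in C4-2B, or 1.83 times more in C4-2B, and the log2 ratio of −0.87 was −0.66 after rescaling. In H3K18ac the KLF12 values were 4.65 and 7.10. The C4-2BER H3K27ac peak lay from −1.87 to −0.07 kb and ended before the start, while that of C4-2B ran on to 0.28 kb. Past this promoter peak, no H3K27ac peak was found inside the KLF12 body in either line. H3K18ac peaks lay there at 97.2 to 98.0 kb in both lines, with fold enrichments of 2.36 and 2.89.

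Past the 3′ end of KLF12 the lines differed by presence. An H3K27ac peak at 465.9 to 466.8 kb from the start was found in C4-2BER alone, with a fold enrichment of 5.18, the tallest of the 31 C4-2BER-only H3K27ac regions in the KLF windows, and an H3K18ac peak of 2.97 in C4-2BER alone lay on it. A second C4-2BER-only H3K27ac peak lay at 449.3 to 449.7 kb with 4.63, where H3K18ac was present in both lines at 3.68 and 3.29. Between these, at 455.8 to 456.1 kb, C4-2B alone had a peak of 3.24.

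The promoter of KLF12 (RefSeq GRCh38.p14, chr13:74134405-74134654, minus strand) and the middle 300 bases of its C4-2BER-only region (hg38, chr13:73667930-73668229, plus strand) are set side by side because the lines differ at both and in opposite directions. The capitals again mark CACCC and GGGCGG on either strand. The promoter holds 5 CACCC and 4 GGGCGG matches, some of which overlap, and a GC content of 72.0%. The distal stretch has a GC content of 45.0% and no match to either box, nor to AGAACA (a steroid hormone receptor half-site), TGTTTAC (a forkhead motif) or CAGCTG (an E-box). Of all 89877 H3K27ac regions, 59.6% hold a CACCC match, 18.02% GGGCGG, 16.4% AGAACA, 4.76% TGTTTAC and 17.9% CAGCTG in their middle 300 bases.
KLF12 promoter: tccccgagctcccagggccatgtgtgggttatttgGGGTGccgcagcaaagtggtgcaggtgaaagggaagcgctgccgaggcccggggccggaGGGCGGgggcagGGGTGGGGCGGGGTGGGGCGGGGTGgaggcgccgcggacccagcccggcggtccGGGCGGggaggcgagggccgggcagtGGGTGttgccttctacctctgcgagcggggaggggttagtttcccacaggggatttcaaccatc
KLF12 distal region: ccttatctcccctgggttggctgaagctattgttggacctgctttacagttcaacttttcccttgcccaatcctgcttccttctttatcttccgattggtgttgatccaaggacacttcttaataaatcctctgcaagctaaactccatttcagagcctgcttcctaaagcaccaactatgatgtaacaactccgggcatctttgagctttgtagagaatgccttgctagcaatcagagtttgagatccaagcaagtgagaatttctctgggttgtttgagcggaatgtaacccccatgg

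KLF9 and KLF10, the partners of SIN3A, had the most H3K27ac regions called increased in C4-2BER. KLF9, a target of glucocorticoid and thyroid hormone receptors (chr9:70384604-70414657, minus strand), had H3K27ac promoter values of 18.5 in C4-2BER against 23.5 in C4-2B, and H3K18ac values that both rounded to 10.6. The H3K27ac log2 ratio of −0.35 turned to 0.14 after rescaling, so no direction can be given for it. The H3K27ac peaks of the 2 lines also differed in width. In C4-2BER a single peak of 14.6 kb ran from −7.49 to 7.10 kb, and 575 of the 72971 peaks of that list were wider. C4-2B had a peak over the start from −1.18 to 4.20 kb and a separate, taller one upstream, from −7.21 to −2.87 kb with a fold enrichment of 32.0. Upstream in H3K18ac, C4-2BER had 1 peak of 11.9 kb with a fold enrichment of 7.17, where C4-2B had 4 peaks, the tallest of 11.8. The taller value was thus that of C4-2B and the longer peak that of C4-2BER at this KLF9 element.

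Further out, 8 of the 12 H3K27ac regions of the KLF9 window had a peak in C4-2BER alone and 1 in C4-2B alone. Over all H3K27ac regions these shares were 29.1% and 20.3%. In H3K18ac 12 of 24 were increased and 3 decreased, beside 26.2% and 23.5% of all H3K18ac regions. The C4-2BER-only H3K27ac peaks were low, with fold enrichments from 2.09 to 3.20. By length, H3K27ac peaks took 25.9 kb of the KLF9 window in C4-2BER against 10.99 kb in C4-2B, a ratio of 2.36 that lay above 93.1% of genes. H3K18ac took 45.6 kb and 17.6 kb, a ratio of 2.59 that lay above 96.6% of genes.

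KLF10, induced by TGF-beta (chromosome 8, minus strand), had H3K27ac promoter values of 20.3 in C4-2BER against 29.7 in C4-2B, and H3K18ac values of 8.49 and 10.6. Of the 10 H3K27ac regions in the KLF10 window, 6 had a peak in C4-2BER alone and 1 in C4-2B alone. Over all H3K27ac regions these shares were 29.1% and 20.3%. The C4-2BER-only regions of KLF10 included small peaks over exon 3 (fold enrichment 2.54) and exon 4 (2.31). Both places also had an H3K18ac peak in C4-2BER alone, with 2.11 and 2.05. The tallest distal element of KLF10, at 37.4 to 38.7 kb, had 9.10 in C4-2BER against 11.2 in C4-2B.

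KLF15, a glucocorticoid-induced regulator of metabolism (chr3:126342635-126357408, minus strand), had H3K27ac promoter values of 12.6 in C4-2BER against 14.7 in C4-2B. The H3K27ac log2 ratio of −0.21 turned to 0.17 after rescaling, so no direction can be given for it. The KLF15 H3K18ac value was higher in C4-2BER, at 7.59 against 5.00. This log2 ratio of 0.60, or 0.81 after rescaling, lay above 99.2% of promoters. The direction depended on the stretch: over the joined H3K18ac region, from −1.36 to 19.3 kb, the mean was 4.27 in C4-2BER against 5.00 in C4-2B, a log2 ratio of −0.23 (−0.06 rescaled). The H3K18ac peak of C4-2B was 20.7 kb wide and that of C4-2BER 5.42 kb, and 1 fold enrichment stands for the whole of a peak, so the heights at the start itself were not compared. The KLF15 body was under longer peaks in C4-2B in H3K27ac as well, from −1.24 to 9.67 kb against −1.49 to 5.09 kb. At 25.1 to 25.8 kb past the gene the H3K27ac fold enrichment was 2.19 in C4-2BER against 4.89 in C4-2B, a log2 ratio of −1.16 that stayed at −1.13 after rescaling. The H3K18ac values at that KLF15 site were 3.69 and 6.25.

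The promoters of KLF9 and KLF15 are shown as the lowest and highest in GC content among the 8 KLF genes whose promoter was searched. The 250 bases before the KLF9 start (RefSeq GRCh38.p14, chr9:70414658-70414907, minus strand) have a GC content of 32.4%, above 2.92% of all promoters, and hold neither box. The H3K18ac peaks over KLF9 begin downstream of this stretch, at 0.13 kb in C4-2BER against 0.15 kb in C4-2B. Those before KLF15 (chr3:126357409-126357658, minus strand) have a GC content of 80.4%, above 97.1% of promoters, and hold 6 GGGCGG matches, some of which overlap, and no CACCC.
KLF9: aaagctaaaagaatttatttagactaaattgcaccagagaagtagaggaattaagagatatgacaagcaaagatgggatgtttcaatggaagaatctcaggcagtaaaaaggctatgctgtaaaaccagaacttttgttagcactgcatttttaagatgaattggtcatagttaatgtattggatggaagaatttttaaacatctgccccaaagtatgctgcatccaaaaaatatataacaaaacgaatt
KLF15: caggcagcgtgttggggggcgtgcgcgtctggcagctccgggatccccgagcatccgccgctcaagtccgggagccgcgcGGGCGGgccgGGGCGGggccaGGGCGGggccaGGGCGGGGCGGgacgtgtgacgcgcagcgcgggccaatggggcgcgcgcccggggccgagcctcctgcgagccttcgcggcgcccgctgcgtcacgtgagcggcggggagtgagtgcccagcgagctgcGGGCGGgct

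**Figure D2:**
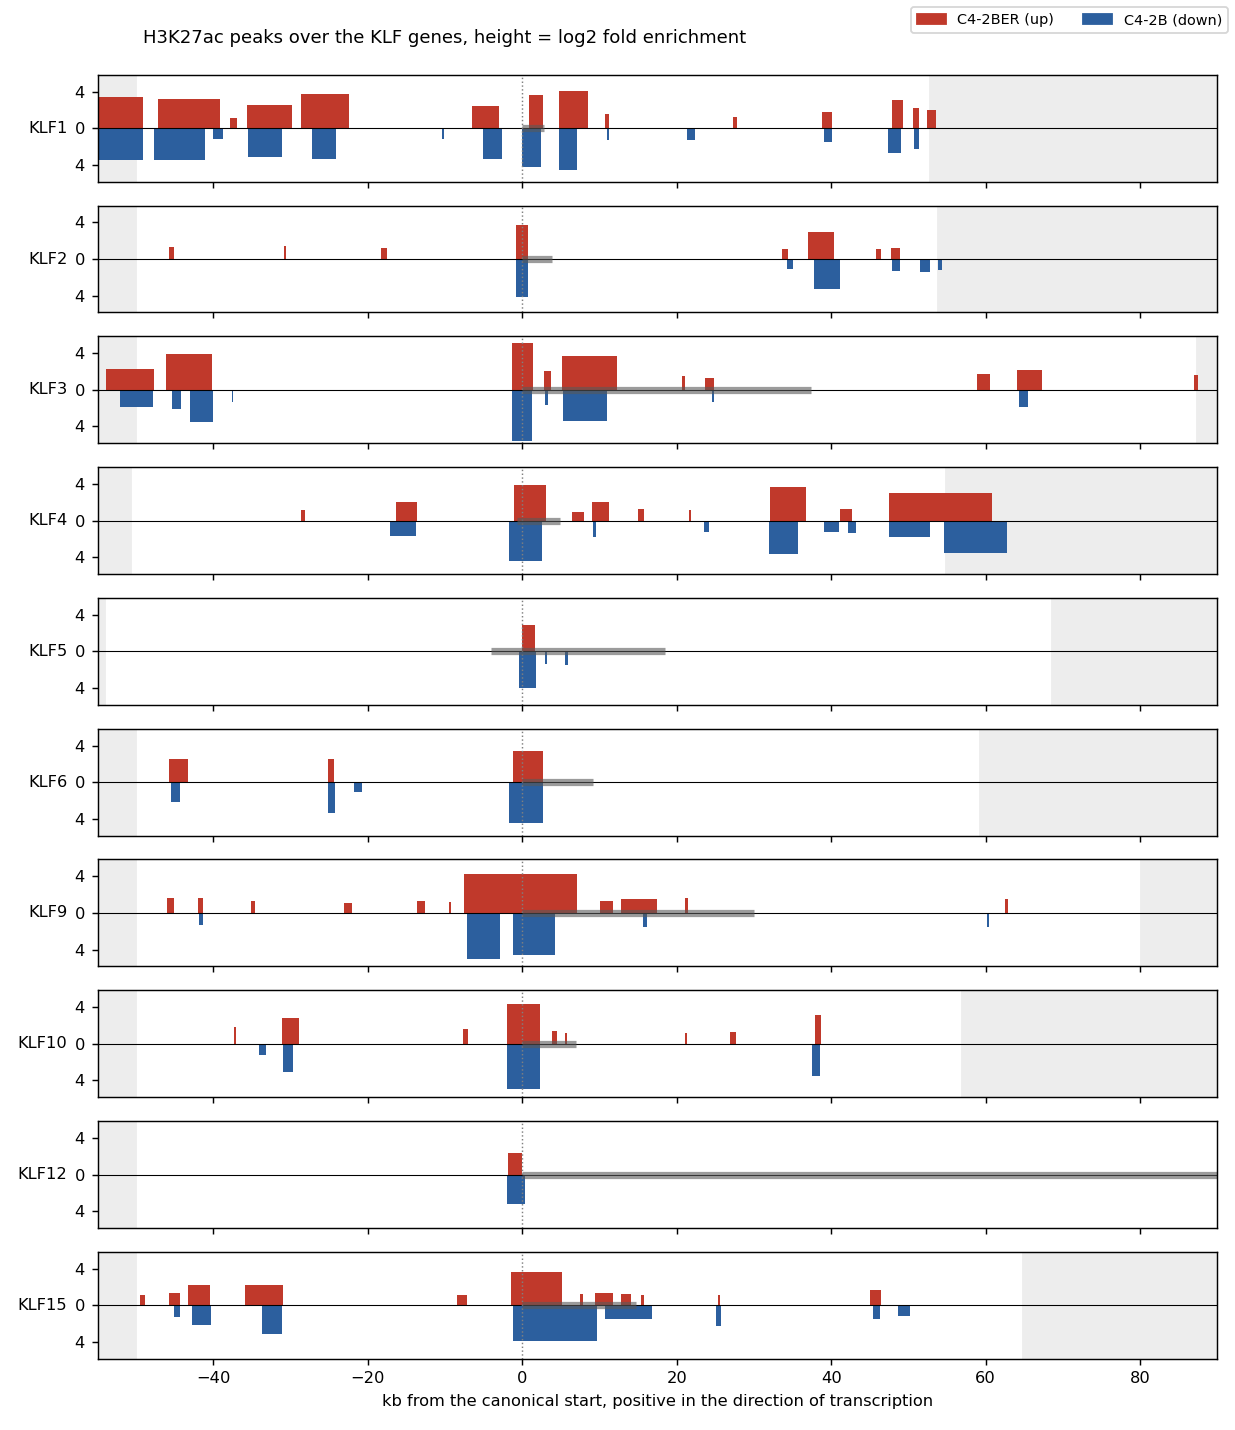
H3K27ac peaks around each KLF gene, with the distance from the canonical start in kb on the x axis and the log2 of the fold enrichment as height, for C4-2BER upwards and C4-2B downwards. The grey bar is the gene body, the dotted line the start and the shaded ground lies outside the gene's window; the 14.6 kb KLF9 peak of C4-2BER faces 2 C4-2B peaks, KLF5 stands nearly alone, and the KLF12 peaks near 450 and 466 kb lie beyond the drawn range.

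**Figure D3:**
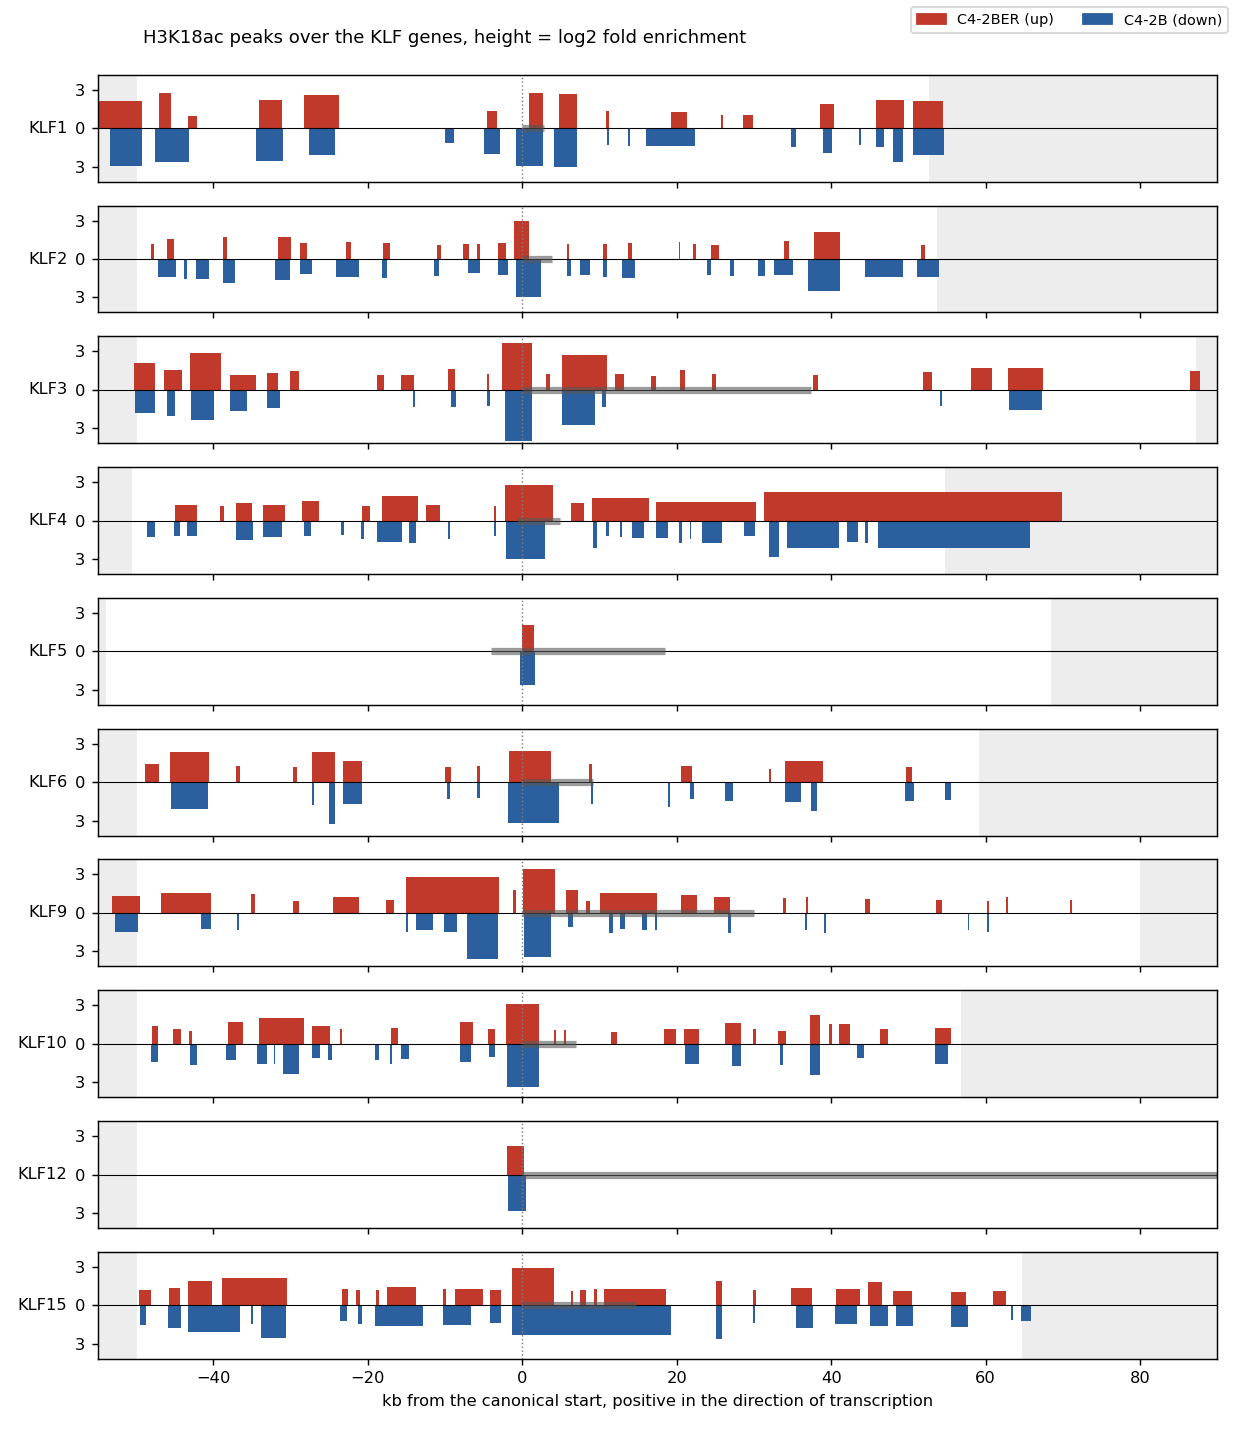
H3K18ac peaks around each KLF gene, drawn in the same way, with C4-2BER upwards and C4-2B downwards and height as log2 fold enrichment. The 38.5 kb peak of C4-2BER downstream of KLF4, the wider C4-2B peaks around KLF2, the long upstream KLF9 peak of C4-2BER and the 20.7 kb KLF15 peak of C4-2B are the widest contrasts, while KLF5 has 1 peak in each line.

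Over all KLF windows, 29 of the 31 H3K27ac regions called increased in C4-2BER lay outside promoters, as did 23482 of 27396 over the genome. The 81 C4-2BER and 64 C4-2B H3K27ac peaks made 91 regions, of which 46 had a peak in both lines, 31 in C4-2BER alone and 14 in C4-2B alone. The 31 regions called increased were 34.1% of the 91, close to the 30.5% of all H3K27ac regions, and the 17 called decreased were 18.7%, against 22.7%. In H3K18ac, 47 of 178 KLF regions were called increased, or 26.4%, against 26.2% of all regions, and 26 decreased, or 14.6%, against 23.5%. The shares of the KLF windows were thus near those of the genome, with the widest gap for decreased H3K18ac regions, and the genes differed in where the calls fell.

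All 10 H3K27ac regions at KLF promoters had a peak in both lines and the lower value in C4-2BER, or 7 of them after rescaling. Outside promoters, 62 H3K27ac regions remained, of which 29 were called increased (46.8%) and 13 decreased (21.0%). Over all regions outside promoters these shares were 36.9% and 25.2%. Of the 21 KLF regions with a peak in both lines, 14 were higher in C4-2BER, or 15 after rescaling, with a median log2 ratio of 0.13 (0.24 rescaled). Over all regions outside promoters the median of the shared ones was −0.04 (0.02 rescaled). By gene, the increased H3K27ac regions fell mostly to KLF9 (8), KLF10 (6), KLF2 (4) and KLF4 (4), while KLF5 and KLF6 had none. In H3K18ac they fell to KLF9 (12), KLF3 (11) and KLF10 (10).

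**Figure D4:**
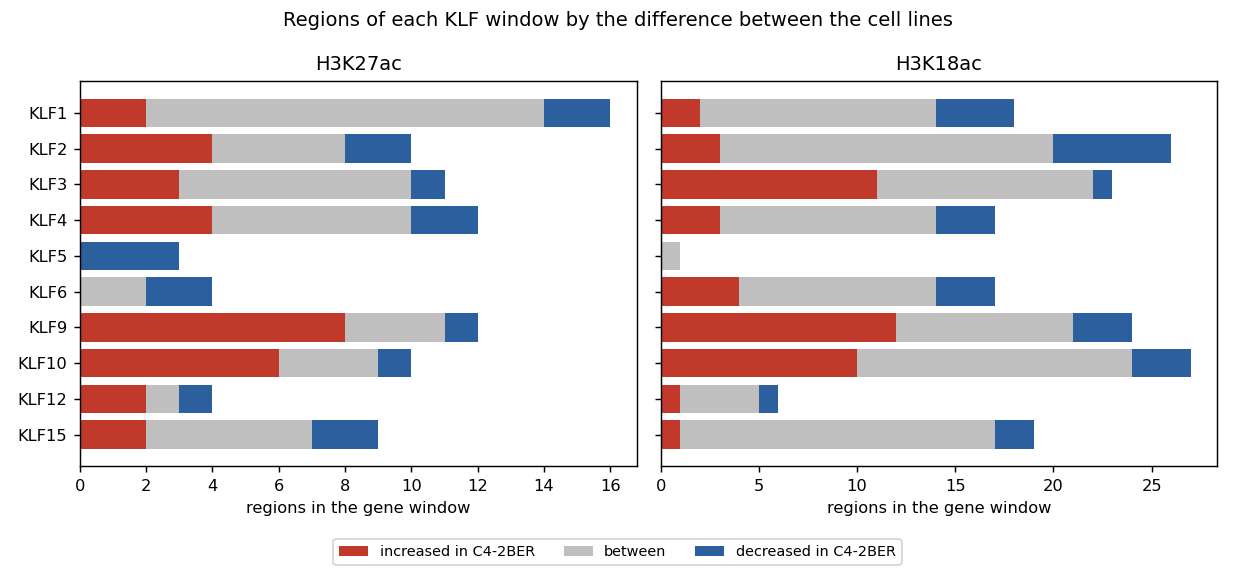
Number of acetylated regions in each KLF window (x axis) that were called increased in C4-2BER, called decreased, or neither (between), for H3K27ac on the left and H3K18ac on the right. KLF9 and KLF10 have the most increased H3K27ac regions, 8 and 6, and the 3 regions of KLF5 are all decreased.

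The C4-2BER-only H3K27ac peaks of the KLF windows were low: the median was 2.46 and the highest value 5.18. Those of C4-2B alone had a median of 2.43 and a highest value of 3.24. Of the 91 KLF regions in H3K27ac, 11 were called increased together with an overlapping H3K18ac region (12.1%, against 8.15% of all H3K27ac regions): 4 at KLF9, 3 at KLF3, 2 at KLF10 and 1 each at KLF4 and KLF12. None of the joined regions was called decreased in both marks, against 5.01% of all. The marks mostly lay together, since 77 of the 81 C4-2BER H3K27ac peaks overlapped an H3K18ac peak of the same line (95.1%, against 92.5% of all peaks), and 57 of the 64 of C4-2B did (89.1%, against 93.8%).

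Base composition differed between the classes. The median GC content of the KLF regions in H3K27ac was 50.7% for those of C4-2BER alone, 52.2% for those of C4-2B alone and 53.6% for the shared ones, and in H3K18ac it was 48.1%, 54.4% and 52.2%. Over all H3K27ac regions it was 49.7%, 55.6% and 51.5%. The part of GC content in the KLF calls was not tested.

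The length of DNA under peaks was read as well. It does not use the fold enrichment values but rests on the same peak calls, and so on their calling limit. In H3K27ac, 7 of the 10 KLF windows had more covered bases in C4-2BER, with a median ratio of 1.23, beside 73.8% of all genes and a median of 1.21. In H3K18ac it was 6 of 10 with a median ratio of 1.24, beside 52.2% and 1.02. KLF9 was the only KLF gene with more than 2 times the cover in C4-2BER, and it was so in both marks. Of all protein-coding genes, 11.03% had at least 2 times the cover in H3K27ac and 8.34% in H3K18ac. A count of 1 among the 10 KLF genes was thus near the share of all genes in each mark. KLF5 had the lowest H3K27ac ratio, 0.614, with 1.69 kb in C4-2BER against 2.75 kb in C4-2B. The peaks of C4-2BER were wider in general, with a median width of 1.18 kb against 1.03 kb in H3K27ac and 0.936 kb against 0.788 kb in H3K18ac.

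**Figure D5:**
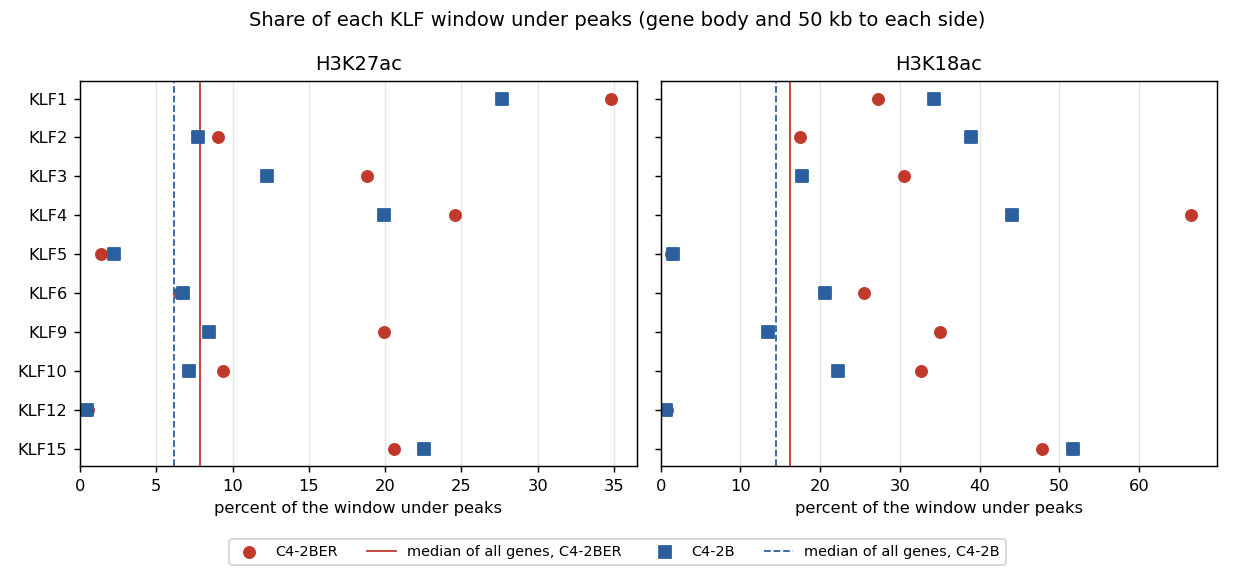
Percent of each KLF window under peaks (x axis, from 0) in C4-2BER (circles) and C4-2B (squares), for H3K27ac on the left and H3K18ac on the right, with the medians over all protein-coding genes as lines. KLF9 lies far to the right in C4-2BER in both marks (19.9% against 8.45% in H3K27ac), KLF4 reaches 66.5% in H3K18ac, and KLF5 and KLF12 lie near 0.

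The remaining genes of the family and the relatives and partners of KLF proteins were read in the same way. Of all promoters with a peak, 4.56% were called increased and 10.8% decreased in H3K27ac, and 2.15% and 5.90% in H3K18ac. Of the 7 other KLF genes, none was called increased or decreased in either mark. The 5 with an H3K27ac promoter peak were KLF7, KLF11, KLF13, KLF14 and KLF16. They ranged from 6.05 to 17.9 in C4-2BER and from 4.35 to 20.1 in C4-2B. Of these 5, 2 were higher in C4-2BER as deposited and all 5 after rescaling, beside 12.2% and 36.8% of all promoters. KLF8 had no promoter peak in any list, and KLF17 had none in H3K27ac. Among the 9 SP genes, which bind the same GC boxes, 2 were called decreased in H3K27ac. SP1, a broadly expressed activator, had 6.14 in C4-2BER against 15.1 in C4-2B, and was not called after rescaling (log2 ratio −0.999). SP8, a limb and forebrain factor, had 3.05 and 8.92, and was called under both scales. In H3K18ac the promoter of SP9 had a peak in C4-2B alone, at 7.55. Of the 10 cofactor genes, among them CTBP1, SIN3A, EP300 and the KLF5 ubiquitin ligase gene WWP1, none was called in either mark. All 10 cofactor promoters were lower in C4-2BER in both marks as deposited, as were 87.8% and 84.9% of all promoters. After rescaling 6 were lower in H3K27ac and 5 in H3K18ac, beside 63.2% and 66.6% of all promoters.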

How the data were processed

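H3K27ac and H3K18ac ChIP-Seq was carried out in C4-2B and C4-2BER cells (8 ChIP and 2 input libraries). Per the study's methods and the labels, the authors trimmed reads (Trimmomatic 0.33), aligned them to hg38 with Bowtie2 (2.2.3 in the submitters' processing notes), removed blacklisted, low-quality and duplicate reads, merged replicates and called broad peaks with macs2 (version not given in the sources used here). In the deposited lists the fold enrichment is a ratio of ChIP signal to local background, and the −log10 q-value is macs2's own. The lists are not scaled to each other, and broad calling joins neighbouring peaks, which lowers and lengthens a value. Depth per library is not given in the lists, so no counting interval was computed.

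Here, peaks over each KLF gene of GENCODE 44 and 50 kb to either side were taken. Peaks of both lines that overlapped by any base were joined, and the values of a region's peaks were averaged by their lengths. Promoter values are as defined in the report. For the rescaled values a robust (Huber) line was fitted through the log2 ratio against mean log2 fold enrichment over shared regions. Python 3.11.15, pandas 2.3.3, numpy 2.4.6, scipy 1.17.1, statsmodels 0.14.6 and matplotlib 3.10.9 were used, and the steps were tested on simulated data. Promoter sequences are from RefSeq (8 of the 10 genes matched and were searched), and motifs were searched on both strands of the 250 bases upstream.

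All 10 members are named, with listed genes that were called and genes under a described peak. The members, gene lists and motifs were chosen with earlier results of these data known. Alternatives were a fold enrichment of at least 4, a −log10 q-value of at least 5, presence of a peak alone, rescaling, a stricter overlap (50% of the shorter peak), windows of 10 or 100 kb, the exclusion of other genes' promoters, and other promoter definitions. The marker promoters given are some of those read, and the others are not reported here.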

Additional observations from a re-analysis of the deposited data

How the results depend on the processing

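The region counts moved with peak strength and window size. The count of increased H3K27ac regions in the KLF windows went from 31 to 7 with a fold enrichment of at least 4. It was 11 above a −log10 q-value cutoff of 5 and 10 within 10 kb of the genes. In the same order, the count of decreased regions went from 17 to 3, 3 and 5, with 27 within 100 kb. In H3K18ac the count of increased regions went from 47 to 1, 15 and 15. That of decreased regions went from 26 to 6, 5 and 5, with 51 within 100 kb. Smaller windows count fewer regions by construction. Stricter peak cutoffs drop regions too, but a shared region that loses its peak in 1 line becomes a new call. In H3K18ac the regions found in 1 line alone reached at most 3.51 in C4-2BER and 3.85 in C4-2B. No shared H3K18ac region was called, so every H3K18ac call at a fold enrichment of at least 4 was new. The 3 decreased H3K27ac promoters became 1 (KLF1) by presence alone or after rescaling, and the 1 decreased H3K18ac promoter became 0 with promoters of 1000 bp on both sides. No promoter was called increased under any of the 6 promoter alternatives. No result reversed by the rule used, which applied only to log2 ratios of at least 1 in size. Smaller H3K27ac ratios, never called, changed sign after rescaling. These were KLF2 (−0.40 to 0.01), KLF3 (−0.42 to 0.23, the only move beyond 1.5 times), KLF9 (−0.35 to 0.14) and KLF15 (−0.21 to 0.17). In H3K18ac the ratio of KLF2 went from −0.03 to 0.21. The other 39 counts stayed within 1.5 times, and 89 promoter ratios of single genes moved by less than that. No paired analysis was possible because the replicate libraries were merged before peaks were called, and for the same reason no library could be left out. Low peaks near the calling limit decide most counts, and the lists do not give the depth that sets this limit.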

Other observations

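KLF5 and KLF12 are neighbours on chromosome 13, and the 609 kb between them was looked at after the peaks had been seen. It held 7 H3K27ac peaks in C4-2BER against 5 in C4-2B, covering 3.55 kb and 3.82 kb, and 12 and 10 H3K18ac peaks. The tallest H3K27ac peak of the interval lay 209 kb past the end of KLF5, at 8.53-fold in C4-2BER against 8.86-fold in C4-2B, which in C4-2BER is above the 7.23 of the KLF5 promoter. A further shared peak lay 374 kb past KLF5, with 5.88 and 5.82. C4-2B alone had a peak of 2.06 kb at 132 kb past KLF5, with a fold enrichment of 6.62, taller than any peak found in 1 line alone within the KLF windows in H3K27ac. C4-2BER alone had H3K27ac peaks at 123 kb (3.68) and 224 kb (3.42) past KLF5, in addition to those near the 3′ end of KLF12.

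Starts of lncRNA genes lay inside 5 of the 10 KLF promoter windows (KLF2, KLF3, KLF4, KLF6 and KLF10), at −312 bp, 32 bp, 1211 bp, −342 bp and −739 bp from the canonical KLF start.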
